A study of Mus musculus with 2 samples.

Results

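The genes of cholesterol and fatty acid synthesis, of sterol transport and of the SREBP control circuit were examined in HT22 cells, 34 genes in 5 groups. They were chosen by their known roles, but with earlier results of these data known. HT22 is a mouse hippocampal cell line used as a model of nerve cells, and J147 is the neurotrophic compound of the study. RNA from HT22 cells exposed to J147 for 1 h was compared with RNA from HT22 cells exposed for 1 h to the DMSO vehicle, on Affymetrix Mouse Genome 430 2.0 GeneChips. The cells of both groups had been plated in DMEM with fetal calf serum the day before, carry no genetic change in the labels, and received either compound or vehicle. The sources differ on the dose of J147, with 10 mM in the sample labels and 10 μM in the paper. With a single array for each condition no test was possible. The effect of J147 and a chance difference between the 2 samples cannot be told apart.

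Of the 34 genes, 33 had probe sets with a single gene symbol in the annotation used, 71 probe sets in all, out of 18193 annotated genes and 45037 probe sets that are not controls. Acat2, which makes the acetoacetyl-CoA that enters the pathway, was not analysed here. The deposited values are gcRMA log2 intensities, which were scaled here to a median intensity of 100 on each array. A probe set was scored when its mean scaled intensity over both arrays was above 100. All 33 annotated members were scored, as were 62 of their probe sets. On both arrays the other 9 were at most 0.01 log2 units above the smallest intensity listed, where a change cannot be seen. Each gene was read from its brightest scored probe set, and the difference is the log2 intensity with J147 minus that with vehicle.

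Cholesterol is built from acetyl-CoA through mevalonate to farnesyl pyrophosphate, then through squalene and lanosterol to the final sterol. The membrane-bound factors SREBP-1 and SREBP-2 switch on most of these genes when sterols are scarce, after SCAP has carried them to the Golgi for cleavage, and INSIG proteins hold SCAP back in the endoplasmic reticulum when sterols are plentiful. When oxysterols accumulate, the nuclear receptors called LXR raise the genes of cholesterol efflux. SREBP-1 is best known for the genes of fatty acid synthesis. The question here was whether these groups differed between the arrays after 1 h of J147.

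Facts of the whole array bear on every value below. Leaving out control probe sets, 46.0% of probe sets on the J147 array and 46.3% on the vehicle array lay within 0.01 of the lowest value. Over all 10611 scored genes the median log2 difference was -0.0046. Among the control probe sets, those for 18S rRNA had a median log2 difference of -0.63, those for the labelling spikes -0.16 and those for the hybridization spikes 0.17, and their part in the results was not tested. Of 8 neuronal marker genes, 1 (Tubb3) was above the lowest value, against 7 of 7 fibroblast markers and 2 of 7 astrocyte markers. Markers of the main lipid-making cells of the body were at the lowest value on both arrays, with 0 of 2 hepatocyte and 0 of 2 adipocyte markers above it.

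Most of the sterol and fatty acid genes had slightly lower values with J147. By the brightest probe sets the differences were small, within 1.26-fold lower for every member and at most 1.41-fold higher. Of the 33 scored members, 27 were lower with J147 by more than 0.01 log2 units and 6 were higher, whereas 44.5% of all scored genes were lower and 33.7% were higher by that margin. Within it lay 2313 of the 10611 scored genes and none of the members, which lowers both shares of the background. At least 1.1-fold lower were 12 of the 33 members, or 36.4%, against 16.4% of all scored genes. At least 1.1-fold higher were 3, namely Mylip, Hsd17b7 and Insig1, or 9.09%, against 10.8% of all scored genes. The median over the 33 was -0.08.

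The members were bright, and 29 of them had a mean log2 intensity of at least 7. Against the 7211 scored genes as bright as that, a background chosen after seeing the data, the picture was much the same. Of these 29, 11 were at least 1.1-fold lower with J147, against 14.9% of the bright genes. At larger differences little was left. At 1.2-fold, 2 members were lower (Mvd and Sc5d) and 1 was higher (Mylip), or 6.06% and 3.03% of the 33, which lies beside 6.23% and 3.6% of all scored genes. No member reached 1.5-fold by its brightest probe set, whereas 0.81% of scored genes did so downward and 0.556% upward. These shares describe 2 arrays, since genes are not replicates, and the members were chosen with earlier results of these data known.

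**Figure D1:**
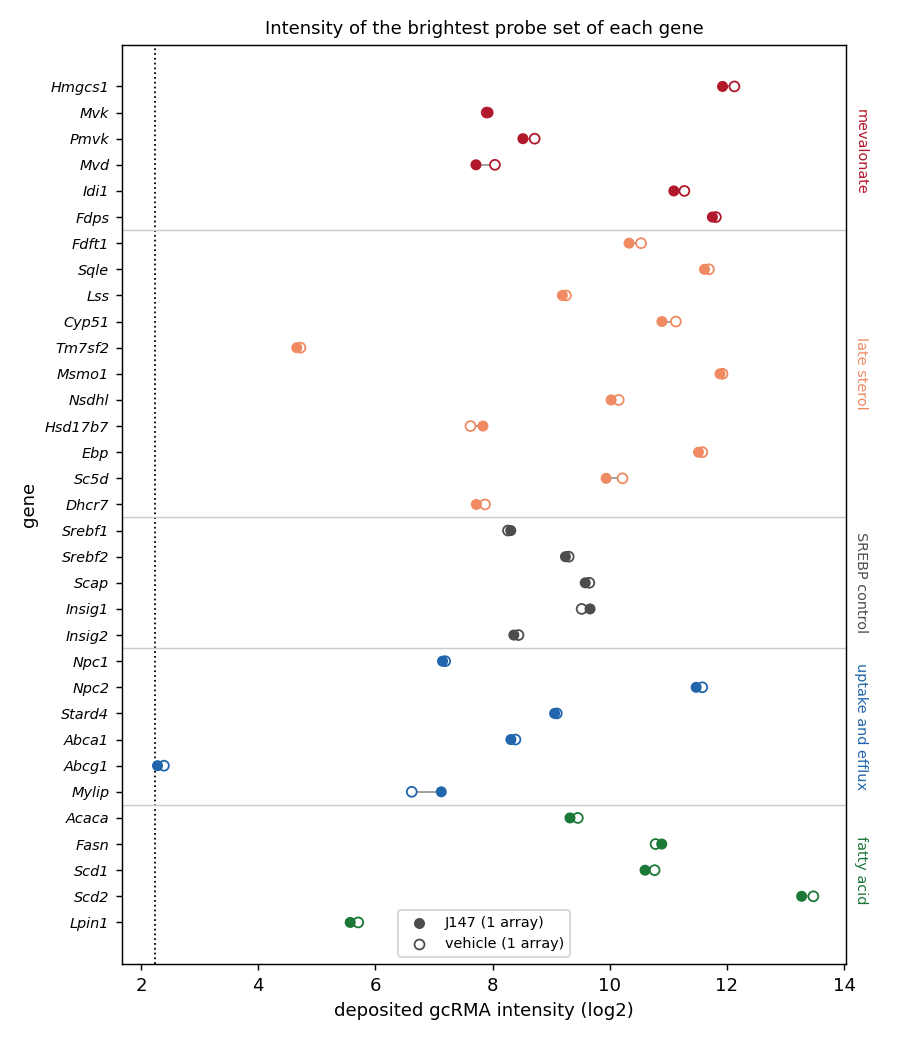
Deposited gcRMA intensity on the log2 scale (horizontal axis) of the brightest probe set of each of the 33 genes (vertical axis, coloured by group) on the J147 array (filled circles) and the vehicle array (open circles), 1 array each. A dotted line marks the bottom of the table, 2.234, to which Abcg1 lies close. Intensities of different probe sets cannot be compared with each other, so the horizontal gap within a row is what can be read, and it is widest for Mylip.

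By the brightest probe sets, the mevalonate genes had a median log2 difference of -0.19 over 6 genes and the fatty acid genes -0.14 over 5. The late sterol genes had -0.08 over 11, the genes of uptake and efflux -0.07 over 6, and those of SREBP control -0.06 over 5. At least 1.1-fold lower with J147 were 4 of the 6 mevalonate genes, 4 of the 11 late sterol genes and 4 of the 5 fatty acid genes. Of all scored genes 16.4% were lower by as much. Acaca and Lpin1, both at -0.14, lay just past that threshold, and 2 of the 5 fatty acid genes passed it with the values as deposited. The order of the groups was not stable either. Without probe sets that may bind more than 1 transcript, the median was -0.063 for the mevalonate genes. Pmvk, whose only probe set is of that kind, drops out there. The median was then -0.11 for the late sterol genes and -0.14 for the fatty acid genes. None of the 5 SREBP control genes and none of the 6 uptake and efflux genes was at least 1.1-fold lower. With a share of 16.4% among all scored genes, 0 in groups this small does not set them apart from the background. In each group at least 1 gene was higher with J147 than with vehicle.

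**Figure D2:**
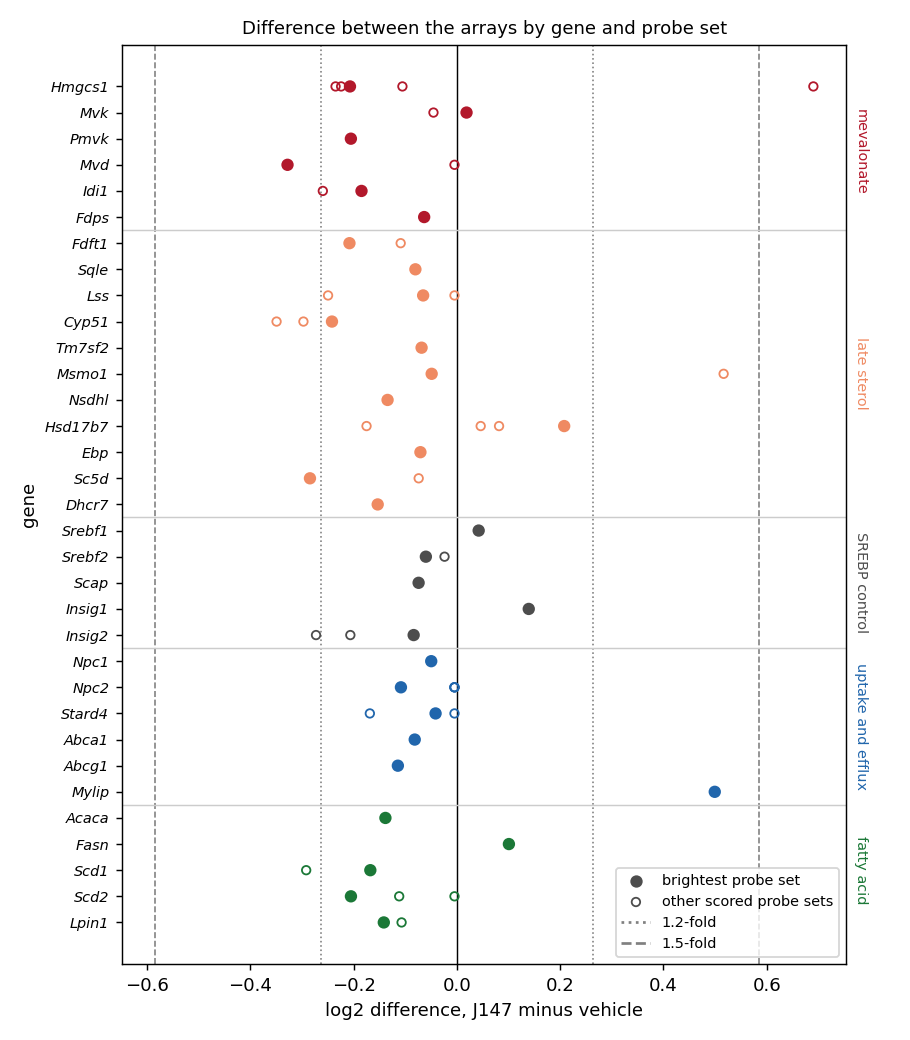
Each scored probe set of the 33 genes (vertical axis, coloured by group) by its log2 difference, J147 minus vehicle (horizontal axis), with the brightest probe set filled and the others open. Dotted lines mark 1.2-fold and dashed lines 1.5-fold. Most filled points lie between -0.33 and 0, and the open points of Hmgcs1 at 0.69 and Msmo1 at 0.52 come from probe sets of low intensity.

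The promoters of the members were searched for the sites of factors known to drive such genes. Promoter windows from RefSeq (GRCm38.p6), 300 bases running from 250 before to 50 after each start site, were found for 26 of the 34 genes, 34 windows in all. Fdps, Fdft1, Sqle, Npc1, Stard4, Abcg1, Scd1 and Scd2 were not matched. Searched on both strands were TCACNCCAC, a form of the sterol response element bound by SREBPs, CCAAT, the box bound by NF-Y, which acts together with SREBPs, and GGGCGG, the GC box bound by Sp1. CCAAT was in 14 of the 18 windows of the mevalonate and late sterol genes, or 77.8%, against 37.4% of all 32851 windows of the table. GGGCGG was in 15 of the 18, or 83.3%, against 35.7% of all windows. The set of all windows covers 27025 genes, whether scored here or not. TCACNCCAC in exactly these letters was in 1 of the 18, that of Hmgcs1, and in 1.24% of all windows. Other forms of the sterol response element were not searched for, so this count does not show that such sites are absent. Of the 3 windows of the fatty acid genes, 1 held CCAAT and none held GGGCGG. The groups in which no gene was 1.1-fold lower held them as well, with CCAAT in 5 and GGGCGG in 8 of the 10 windows of the SREBP control genes, and in 2 and 3 of the 3 windows of the uptake and efflux genes.

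The 250 bases before the start site are shown for 4 members, with TCACNCCAC and CCAAT (whose reverse complement is ATTGG) in capitals. Hmgcs1 holds TCACNCCAC, and other forms of the sterol response element are not marked in any of the 4. Cyp51 was lower with J147 on each of its probe sets, and Hsd17b7 and Mylip were higher by their brightest probe sets. They lie at chr13:119690101-119690350 on the plus strand (Hmgcs1), chr5:4104698-4104947 on the minus strand (Cyp51), chr1:169969206-169969455 on the minus strand (Hsd17b7) and chr13:45389492-45389741 on the plus strand (Mylip), and each is written 5′ to 3′ along its gene.
Hmgcs1: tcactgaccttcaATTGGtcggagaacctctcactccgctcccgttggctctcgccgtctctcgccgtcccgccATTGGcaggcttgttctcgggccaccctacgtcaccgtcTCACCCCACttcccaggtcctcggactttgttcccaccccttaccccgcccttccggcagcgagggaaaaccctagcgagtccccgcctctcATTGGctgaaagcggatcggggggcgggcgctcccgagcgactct
Cyp51: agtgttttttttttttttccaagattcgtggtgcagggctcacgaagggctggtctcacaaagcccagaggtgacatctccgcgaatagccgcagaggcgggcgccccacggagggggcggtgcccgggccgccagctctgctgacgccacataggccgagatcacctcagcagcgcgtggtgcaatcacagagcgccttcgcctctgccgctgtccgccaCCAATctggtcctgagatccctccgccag
Hsd17b7: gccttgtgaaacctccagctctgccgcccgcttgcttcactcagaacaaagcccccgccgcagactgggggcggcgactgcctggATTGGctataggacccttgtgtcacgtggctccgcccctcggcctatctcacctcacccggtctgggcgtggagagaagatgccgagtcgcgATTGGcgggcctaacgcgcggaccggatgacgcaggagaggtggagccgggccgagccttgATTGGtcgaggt
Mylip: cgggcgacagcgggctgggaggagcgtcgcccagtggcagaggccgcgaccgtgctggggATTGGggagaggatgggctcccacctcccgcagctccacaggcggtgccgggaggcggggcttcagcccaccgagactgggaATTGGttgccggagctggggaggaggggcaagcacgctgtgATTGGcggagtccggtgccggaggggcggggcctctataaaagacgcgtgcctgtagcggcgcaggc
In Hmgcs1 the match to TCACNCCAC begins 137 bases before the start site, and CCAAT boxes begin 237, 176 and 45 bases before it. Cyp51 has 1 CCAAT box, 29 bases before the start site. Hsd17b7 has CCAAT boxes at 165, 73 and 12 bases and Mylip at 190, 108 and 67 bases before the start site. A match of letters is no evidence that a factor is bound, and a link between these sites and the differences was not tested.

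The mevalonate genes were lower with J147 by more than 0.01 log2 units in 5 of 6 cases, against 44.5% of all scored genes. Hmgcs1 encodes the cytosolic HMG-CoA synthase, the step before the reductase that statins inhibit. Its brightest probe set 1433445_x_at had a scaled intensity of 78610 with J147 and 90739 with vehicle, a log2 difference of -0.21. Probe sets 1433444_at, 1433446_at and 1433443_a_at were lower as well, with log2 differences of -0.23, -0.22 and -0.11. The fifth probe set, 1441536_at, went the other way. It had 588 with J147 and 364 with vehicle, 1.61-fold higher, at an intensity far below that of the others. Among the 500 scored probe sets nearest in level, a difference that large was seen in 31 for 1433445_x_at and in 17 for 1441536_at.

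Mvd, the mevalonate diphosphate decarboxylase that makes isopentenyl pyrophosphate, had the lowest difference among the members when each was read from its brightest probe set. Its brightest probe set 1448663_s_at had 4250 with J147 and 5335 with vehicle, 1.26-fold lower, and 33 of the 500 probe sets nearest in level differed by as much. The other scored probe set of Mvd did not show this difference. On probe set 1417303_at the deposited log2 intensity was 7.18 with J147 and 7.18 with vehicle, an identical value. Probe sets whose names end in _s_at, _x_at or _a_at may bind more than 1 transcript. Without them Mvd had a log2 difference of -0.0046. The median of the mevalonate genes was then -0.06 over 5 genes, since Pmvk has no other probe set.

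Idi1, the isomerase that turns isopentenyl into dimethylallyl pyrophosphate, was lower on both of its probe sets. Probe set 1451122_at had 44173 with J147 and 50206 with vehicle, and 1423804_a_at had 26169 with J147 and 31328 with vehicle, log2 differences of -0.18 and -0.26. Pmvk, the phosphomevalonate kinase, had 7407 with J147 and 8539 with vehicle, a log2 difference of -0.21 on its single probe set. The remaining kinase and the prenyl transferase were nearly alike on both arrays. Mvk, mevalonate kinase, had 4905 with J147 and 4842 with vehicle, a log2 difference of 0.02. Fdps, farnesyl pyrophosphate synthase, had 69716 with J147 and 72844 with vehicle, a log2 difference of -0.06.

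In the late sterol pathway 10 of 11 genes were lower with J147 by more than 0.01 log2 units and Hsd17b7 was higher. Of all scored genes 44.5% were lower by that margin. At least 1.1-fold lower were 4 of the 11, against 16.4% of all scored genes. Cyp51 encodes the lanosterol demethylase that azole drugs inhibit in fungi, and its probe sets were lower without exception. Probe set 1450646_at had 38374 with J147 and 45379 with vehicle, 1422533_at had 14407 with J147 and 17702 with vehicle, and 1422534_at, at a low level, had 171 with J147 and 218 with vehicle. Their log2 differences were -0.24, -0.30 and -0.35. Differences as large were seen in 21, 22 and 42 of the 500 probe sets nearest in level.

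Sc5d, the sterol C5-desaturase near the end of the pathway, had 19822 with J147 and 24143 with vehicle on probe set 1451457_at, 1.22-fold lower. That was matched by 23 of the 500 probe sets nearest in level. Its second scored probe set, 1434520_at, had 2927 with J147 and 3081 with vehicle, a log2 difference of -0.07. Fdft1, squalene synthase, was lower on both scored probe sets, by log2 differences of -0.21 and -0.11. Dhcr7, which makes the final reduction to cholesterol, had a log2 difference of -0.15, with 4266 with J147 and 4745 with vehicle. Nsdhl, a sterol C4-decarboxylase, had -0.13.

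Differences were smaller for the rest of the lower genes. Sqle, the squalene epoxidase that is a rate-limiting step of the pathway, had 63481 with J147 and 67115 with vehicle, a log2 difference of -0.08. Ebp, a sterol isomerase, had -0.07, and the sterol reductase Tm7sf2 had -0.07 at a low level. Lss, which closes squalene epoxide into lanosterol, had -0.07 on its brightest probe set and -0.25 on 1426913_at. Msmo1, the methylsterol monooxygenase, had 76212 with J147 and 78833 with vehicle on 1423078_a_at, a log2 difference of -0.05. Its other probe set, 1459627_at, lay near the lowest value, with 159 with J147 and 111 with vehicle, a log2 difference of 0.52 in the opposite direction.

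Hsd17b7, a ketosteroid reductase that acts between Nsdhl and Ebp, stood apart from its pathway in direction. Its brightest probe set 1457248_x_at had 4616 with J147 and 3997 with vehicle, a log2 difference of 0.21. That was matched by 93 of the 500 probe sets nearest in level. The next brightest, 1417871_at, had 1872 with J147 and 1769 with vehicle, a log2 difference of 0.08. Probe sets 1440057_at and 1448865_at, both at low levels, had 0.05 and -0.17.

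**Figure D3:**
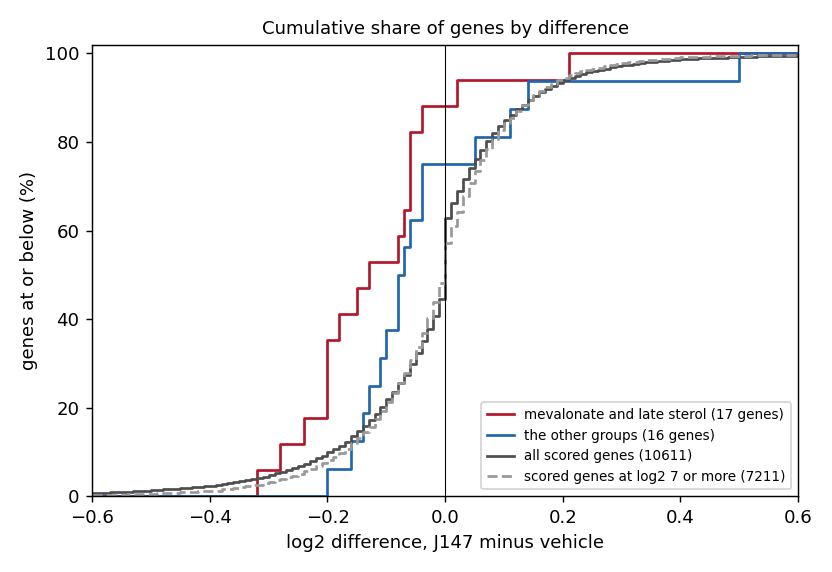
Share of genes (vertical axis, %) with a log2 difference, J147 minus vehicle, at or below the value on the horizontal axis, for the 17 mevalonate and late sterol genes, the 16 genes of the other groups, all 10611 scored genes and the 7211 of them with a mean log2 intensity of at least 7. The curve of the mevalonate and late sterol genes lies to the left of both backgrounds through the middle of the range, with a median of -0.13 against -0.0046 for all scored genes, and its ends are no further out than theirs.

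The genes that control SREBP activity were nearly alike on both arrays, apart from the INSIG pair. Insig1, whose own transcription is driven by SREBPs and whose mRNA serves as a readout of them, had 16396 with J147 and 14887 with vehicle, a log2 difference of 0.14. Of the 500 probe sets nearest in level, 131 differed by as much. Insig2, the relative that SREBPs do not drive in this way, was lower on all 3 of its scored probe sets. They had 6652, 5535 and 5571 with J147, against 7049, 6686 and 6427 with vehicle for 1417981_at, 1417980_a_at and 1417982_at in that order. The log2 differences were -0.08, -0.27 and -0.21, so the brightest probe set gave the smallest.

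The SREBP genes themselves differed by little. Srebf1, which encodes SREBP-1, had 6413 with J147 and 6228 with vehicle, a log2 difference of 0.04. Srebf2, which encodes SREBP-2, had -0.06 and -0.02 on its 2 probe sets, and Scap had -0.07. Cleavage of the SREBPs, which sets their activity, is not seen on an mRNA array.

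Mylip had the largest difference of all 33 members by their brightest probe sets. It encodes IDOL, a ubiquitin ligase that sends lipoprotein receptors to the lysosome and is a known target of LXR. Its single probe set, 1424988_at, had 2819 with J147 and 1994 with vehicle, 1.41-fold higher. Among all 10611 scored genes it held place 81 counted from the highest difference, and 22 of the 500 probe sets nearest in level differed by as much. The efflux transporters that LXR also drives were read from a single scored probe set each. Abca1, which exports cholesterol to apolipoprotein A-I, had 6425 with J147 and 6799 with vehicle, a log2 difference of -0.08 on the probe set that was scored, and its other 2 were at the lowest value. Abcg1, a second exporter, was near the lowest value, with 98.1 with J147 and 106 with vehicle, a log2 difference of -0.11. Whether LXR had a part in any of these values was not tested.

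Sterol transport out of lysosomes and within the cytosol differed little. Npc1 and Npc2 together release cholesterol from the lysosome. Npc1 had 2861 with J147 and 2961 with vehicle, a log2 difference of -0.05. Npc2 had -0.11 on 1448513_a_at and -0.0048 on the almost equally bright 1416901_at. Stard4, a cytosolic sterol carrier and SREBP target, had -0.04, -0.17 and -0.0046 on its 3 probe sets, the last with identical deposited values.

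Of the fatty acid genes 4 of 5 were lower with J147 by more than 0.01 log2 units, against 44.5% of all scored genes. Scd2 and Scd1 encode stearoyl-CoA desaturases, which put the double bond into oleate and palmitoleate. Scd2 had 200339 with J147 and 230949 with vehicle on 1415822_at, a log2 difference of -0.21, which 15 of the 500 probe sets nearest in level matched. Its probe set 1415823_at had -0.11, and 1415824_at, at a low level, had identical deposited values. Scd1 was lower on both probe sets. It had 31420 with J147 and 35290 with vehicle on 1415964_at, and 12838 with J147 and 15716 with vehicle on 1415965_at, log2 differences of -0.17 and -0.29.

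Acaca and Fasn carry out successive steps, and their values lay on opposite sides of 0. Acaca, the acetyl-CoA carboxylase that makes malonyl-CoA, had 12927 with J147 and 14228 with vehicle, a log2 difference of -0.14. Fasn, the fatty acid synthase that uses malonyl-CoA, had 38282 with J147 and 35698 with vehicle, a log2 difference of 0.10. Lpin1, a phosphatidate phosphatase of triglyceride synthesis and a coregulator of transcription, was lower on both probe sets at a modest level, by log2 differences of -0.14 and -0.11. Of the 500 probe sets nearest in level, 131 differed by as much as Acaca, 163 by as much as Fasn and 202 by as much as the brighter Lpin1 probe set.

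Probe sets of the same gene gave the nearest thing to a repeated measure on these arrays, although they share the RNA and are not replicates of the treatment. Of 17 members with at least 2 scored probe sets, 12 had both of the 2 brightest lower with J147 by more than 0.01 log2 units, or 70.6%, against 25.5% of the 5194 scored genes with as many. The median gap between the 2 differences was 0.10 for the members and 0.09 for all such genes. That gap was about as large as the median difference of the members. Where both probe sets had log2 intensities of at least 7 on both arrays, 10 of 13 members had both lower, against 30.1% of 2562 genes. Over the 46 member probe sets at least that bright, the median was -0.11, with 38 lower and 5 higher by more than 0.01, where 46.4% of all scored probe sets as bright were lower and 40.3% higher. Over the 16 dimmer scored probe sets it was -0.0046, with 7 lower and 5 higher, where 33.7% of all dimmer ones were lower and 27.2% higher. Their range was wider, -0.35 to 0.69 against -0.33 to 0.21 for the bright ones.

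**Figure D4:**
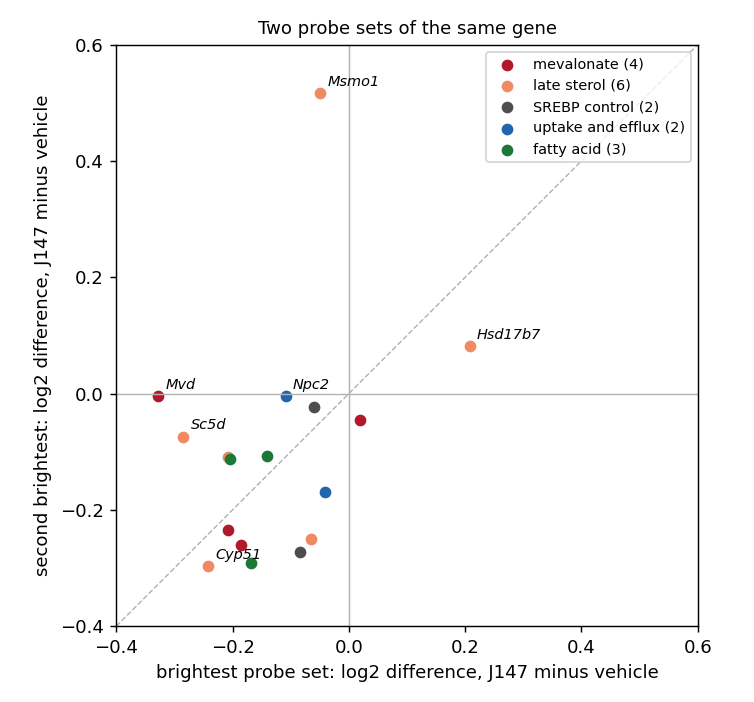
Log2 difference, J147 minus vehicle, of the brightest (horizontal axis) and the second brightest (vertical axis) scored probe set of the 17 genes with at least 2, coloured by group with the number of genes in the legend. On the dashed line both would be equal. Most genes lie to the lower left of 0, Mvd and Npc2 lie close to 0 on the vertical axis, and Msmo1 is far off the line with -0.05 and 0.52.

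Genes of the same pathways outside the 34 were read from a list of 45, of which 37 were annotated and 34 scored. The list was chosen by role, also with earlier results of these data known. By their median log2 difference, -0.0076, they were closer to the background than the members. Within 0.01 of 0 were 12 of the 34, against 2313 of all 10611 scored genes. At least 1.1-fold lower were 9 (26.5%) and higher 1 (2.94%), against 16.4% and 10.8% of all scored genes. The sterol genes of the list were like the members at that threshold, with 5 of 14 lower (35.7%), beside 36.4% of the members. Of its fatty acid genes 4 of 20 (20%) were lower. At 1.2-fold 1 was lower (2.94%) and none was higher, against 6.23% and 3.6% of all scored genes. The gene that passed was Lipa, the lysosomal acid lipase that frees cholesterol from lipoprotein esters. Its brightest probe set 1450872_s_at had 7869 with J147 and 10266 with vehicle, 1.30-fold lower. Probe set 1423140_at had 3422 with J147 and 5410 with vehicle, 1.58-fold lower, and 1423141_at had 1335 with J147 and 1790 with vehicle, 1.34-fold lower. Differences as large were seen in 14, 8 and 33 of the 500 probe sets nearest in level.

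The largest difference upward in that list belonged to Vldlr, the very low density lipoprotein receptor and a target of the IDOL ligase. Its probe set 1434465_x_at had 19895 with J147 and 16685 with vehicle, a log2 difference of 0.25, while its other 5 scored probe sets lay between -0.02 and 0.04. Of members of the list picked after their values were seen, the desaturases Fads1 and Fads2 had log2 differences of -0.23 and -0.22 on their brightest probe sets, close to those of Scd1 and Scd2. The SREBP target Acly, which makes cytosolic acetyl-CoA, had -0.06, and the elongases Elovl5 and Elovl6 had -0.01 and -0.0010.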

How the data were processed

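RNA of HT22 cells was hybridized to Affymetrix Mouse Genome 430 2.0 GeneChips, 1 for J147 and 1 for vehicle. The values deposited by the authors are log2 intensities that they made with the gcRMA algorithm in R, which corrects background by the GC content of probes. Affymetrix Expression Console 1.0 is named in the submitters' processing notes, and the gcRMA version and a genome build for the values are not given in the sources used here. Here the intensities of each array were multiplied to give the 45037 probe sets other than controls a median of 100, as the paper's methods describe, and probe sets with a mean above 100 were scored. Of the 45037, 34945 have 1 gene symbol in GEO's platform annotation, 932 several and 9160 none. Symbols were updated through the Entrez number to RefSeq (GRCm38.p6).

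The members, the lists and the thresholds were chosen with earlier results of these data known. Named in full were members at least 1.2-fold different, the 2 largest differences of each group and members whose scored probe sets lay over 0.3 log2 units apart, and of the other pathway genes those at least 1.5-fold different and the largest difference each way. Values of further members are given to account for all of them. Beside each probe set stand the 500 scored ones closest to it in mean level. Alternatives included quantile normalization, no scaling, a pseudocount of 50, subtraction of a lowess curve (span 0.3), no filter or a mean above 200, averaging over a gene's scored probe sets, leaving out _x_at, _s_at and _a_at probe sets, and thresholds of 1.1-fold and 1.5-fold. Python 3.11.15, numpy 2.4.6, pandas 2.3.3, statsmodels 0.14.6 and matplotlib 3.10.9 were used, and the calculation was tested on simulated data. The number of arrays limits the precision.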

Additional observations from a re-analysis of the deposited data

How the results depend on the processing

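Of 205 recomputed values, 190 kept close to the one in the text (within 0.05 log2 units for medians, within the SD of the 500 probe sets nearest in level for single genes, within 1.5 times for counts), 15 moved and none changed the direction of a called difference. Part of the 190 were bound to stay. A change of filter leaves the brightest probe set of nearly every member in place, and averaging leaves genes with a single scored probe set unchanged. The tolerance for single genes was also wide. Hsd17b7, at 0.21 in the text and 0.04 with averaging, counted as close. The median of all 33 members ranged from -0.08 to -0.07. Under quantile normalization, the lowess curve, the values as deposited, the pseudocount and both filters no median moved. The mevalonate median was -0.11 when a gene's scored probe sets were averaged and -0.063 without _x_at, _s_at and _a_at probe sets. With averaging the fatty acid median was -0.12, so in both of these settings the mevalonate genes no longer had the lowest median. The members at least 1.1-fold lower, 12 in the text, numbered 9 to 12 (9 of 33 with quantile normalization or lowess, against 14.9% and 14.5% of all scored genes). Of the 5 fatty acid genes, 2 passed 1.1-fold with no scaling, quantile normalization, lowess or averaging and 3 with the pseudocount or without the suffixed probe sets. With averaging 1 SREBP control gene passed it. Without Mvd and Sc5d, a setting chosen after seeing the data, the median of the mevalonate and late sterol genes was -0.080. The members at least 1.2-fold lower numbered 1 with averaging and 1 without the suffixed ones, where those at least 1.2-fold higher numbered 2. At 1.1-fold they were 12 lower and 3 higher, and at 1.5-fold 0 and 0, as a change of threshold does by construction. The cause of the other moves was not tested. With averaging, Msmo1 had a log2 difference of 0.23 and Hmgcs1 of -0.02, since each has 1 dim probe set that was higher with J147. Msmo1 thus changed sign from the -0.05 in the text, a difference too small to be called. Without the suffixed probe sets Msmo1 had 0.52 and was, with Mylip, at least 1.2-fold higher. No paired analysis was possible because each condition has 1 array.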
